A study of Mus musculus with 6 samples.

Results

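The 12 wells described here are the pooled-nuclei SMART-Seq2 libraries of mouse brain: 9 wells of nuclei from formalin-fixed, paraffin-embedded (FFPE) tissue and 3 wells of frozen nuclei. They were chosen by the treatment column of the authors' annotation table, and make up 12 of the 76 bulk wells of the series, the other 64 being SCRB-seq wells. Single-nucleus libraries of the series were not used here. Each of 4 treatments has 1 well of 10, 1 of 50 and 1 of 100 nuclei, so every frozen well has 3 FFPE wells of its own nuclei number. MinOil stands for paraffin removed with mineral oil and heat, Xylene for xylene with heat, and XyleneRT for xylene at room temperature. The labels describe C57BL/6J mice of 8 to 12 weeks and scrolls of 50 µm labelled mouse cortex. They carry no protocol for the frozen nuclei, no sex and no animal for any well. All 12 wells belong to 1 GEO sample, so p-values measure the spread between these wells, which may be technical.

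Formalin links RNA to protein and chemically modifies its bases, and embedding in paraffin requires the tissue to be dehydrated and later freed of wax before nuclei can be isolated. SMART-Seq2 primes on poly(A) and copies transcripts towards their 5′ end by template switching, which makes it sensitive to broken or modified RNA. A nucleus holds unspliced and nuclear-retained transcripts, little cytoplasmic RNA, and no mitochondrial genome, although mitochondria and cytoplasm can adhere to isolated nuclei.

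The annotation ties treatment to a library index, and the index sequences are shown because they are a physical label that separates the groups. Each treatment has 1 i5 index in all its wells, given here as the annotation spells it, with every base in capitals since the whole run is the label.
Frozen: ACTCGCTA
MinOil: CGGAGCCT
Xylene: GGAGCTAC
XyleneRT: GCGTAGTA
The frozen index differs from the FFPE indices at 5 to 8 of its positions. The i7 index follows the nuclei number.
10 nuclei: TATGCAGT
50 nuclei: CTCCTTAC
100 nuclei: AGAGGATA
The i5 index and treatment therefore cannot be told apart, nor can i7 index and nuclei number.

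Total counts ranged from 270363 (frozen, 50 nuclei) to 942966 (Xylene, 10 nuclei). The 3 frozen wells had 891133, 270363 and 466661 counts at 10, 50 and 100 nuclei, and the 9 FFPE wells had 422718 to 942966, with a median of 566881. Of 21987 mouse genes in the table, 17240 had a count and 9092 passed the filter on low counts. Across the 9092 tested genes, Spearman's rho between wells was 0.78 to 0.87 among frozen wells, 0.36 to 0.73 among FFPE wells (median 0.50) and 0.34 to 0.58 between an FFPE and a frozen well (median 0.47). With the wells of 10 nuclei left out, the FFPE wells had a median rho of 0.64 with each other and of 0.52 with the frozen wells. These correlations run across genes and carry no test.

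FFPE wells detected fewer genes than frozen wells of the same nuclei number, and most of that difference lay at 10 nuclei. Genes with at least 1 count numbered 11366, 11626 and 12905 in the frozen wells of 10, 50 and 100 nuclei. At 10 nuclei the FFPE wells had 6675 (MinOil), 8252 (Xylene) and 6371 (XyleneRT). At 50 nuclei they had 10602, 11270 and 10626, and at 100 nuclei 12217, 12722 and 11967, in the same order. Every FFPE well thus lay below the frozen well of its nuclei number, while FFPE wells of 100 nuclei lay above frozen wells of 10 and 50. The mean FFPE minus frozen difference was -4267 genes at 10 nuclei, -793.3 at 50 and -603 at 100. Averaged over nuclei numbers it was -1888 (two-sided exact permutation test within nuclei number, p = 0.0156, the smallest p that 64 arrangements allow).

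That difference depended on the frozen well of 10 nuclei and on the count that defines detection. Without the frozen well of 10 nuclei the mean difference was -698.2 (exact p = 0.0625, the smallest possible there). With at least 5 counts required it was -435.4 (exact p = 0.672): -3722 at 10 nuclei, 1369 at 50 and 1047 at 100. With all wells thinned to 270363 counts and 1 count required it was -1941 (exact p = 0.0156), at -3671, -1582 and -570.7 for 10, 50 and 100 nuclei. Ignoring nuclei number gave an exact p of 0.214 for the same mean.

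The most abundant genes took a smaller share of counts in FFPE wells. The 100 most abundant genes of a well took 23.7% ± 1.81 of its counts in FFPE (SD, n = 9) and 30.9% ± 2.72 in frozen wells (SD, n = 3), a difference of -7.21 percentage points (two-sided exact permutation p = 0.0156, the smallest possible). All 9 FFPE wells, at 21.3% to 27.6%, lay below all 3 frozen wells, at 29.2% to 34.1%. For the 500 most abundant genes the arms overlapped, at 42.3% to 52.4% in FFPE and 50.6% to 54.1% in frozen wells. Malat1, a nuclear-retained long noncoding RNA often read as a mark of nuclear content, took 1.42% ± 0.289 of FFPE counts and 1.96% ± 0.73 of frozen counts. That difference, -0.54 percentage points, had an exact permutation p of 0.0469 within nuclei number. It was 0.0358 at 10 nuclei, -0.719 at 50 and -0.947 at 100, so the mean at 10 nuclei did not share its sign. There the MinOil well, at 0.833%, lay below the frozen well, at 1.16%, while the Xylene and XyleneRT wells lay above it. The exact p was 0.0682 when nuclei number was ignored and 0.0625 on leaving out any 1 of 7 FFPE wells. It stayed at 0.0417 without the Xylene or XyleneRT well of 10 nuclei. Without a frozen well no exact p can fall below 0.0625, and the difference was -0.83 without that of 10 nuclei, -0.46 without that of 50 and -0.34 without that of 100.

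**Figure D1:**
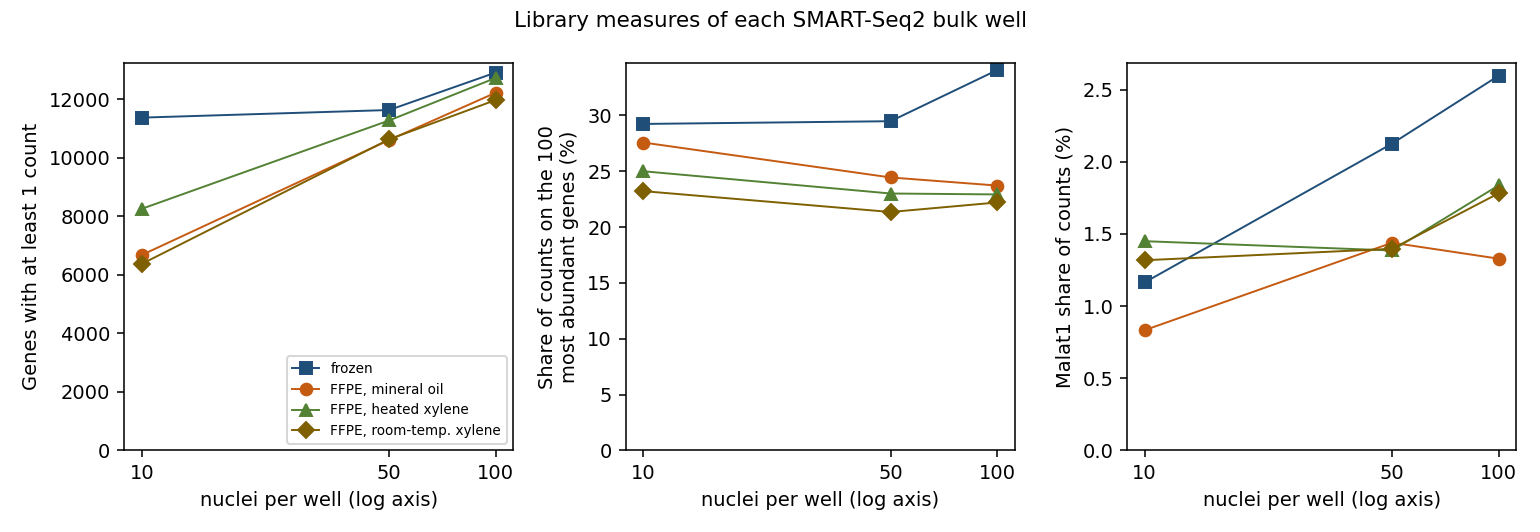
Genes with at least 1 count, share of counts on the 100 most abundant genes (percent) and Malat1 share of counts (percent), each against nuclei per well on a log axis, with 1 point per well and a line per treatment. FFPE wells rise from 6371 to 8252 genes at 10 nuclei to 11967 to 12722 at 100, while frozen wells start at 11366.

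Of the 9092 genes tested, 429 were called different between FFPE and frozen wells, which is 4.72%: 126 higher in FFPE (1.39%) and 303 lower (3.33%). A gene was called when its adjusted p was under 0.05 by the Benjamini-Hochberg method in the quasi-likelihood test of edgeR, with nuclei number as a block. The calls were large changes, with a median absolute log2 fold change of 3.76 and a smallest of 0.69. The median log2 fold change of all tested genes was -0.37, and each value below can be read against it. In 789 tested genes (8.68%) the FFPE and frozen wells did not overlap in CPM (counts scaled to the well total), 338 with all FFPE wells above (3.72%) and 451 with all below (4.96%), and 350 of the 429 called genes were among them. An unadjusted p under 0.05 was reached by 1573 genes.

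The number of calls was lowest with a frozen well left out. It fell to 103 without the frozen well of 10 nuclei, 173 without that of 50 and 177 without that of 100. Leaving out an FFPE well gave 347 to 488. With all 4 wells of 10 nuclei left out it rose to 789 (350 higher and 439 lower), where 44.4% of calls were higher in FFPE against 29.4% in the fit to all wells, and the median of all genes was -0.03. DESeq2's Wald test called 1021 genes (361 higher, 660 lower). Of 72 called genes taken by size, by level and from the gene lists, 35 kept their call without any 1 of the 12 wells, and 37 kept it without the frozen well of 10 nuclei.

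**Figure D2:**
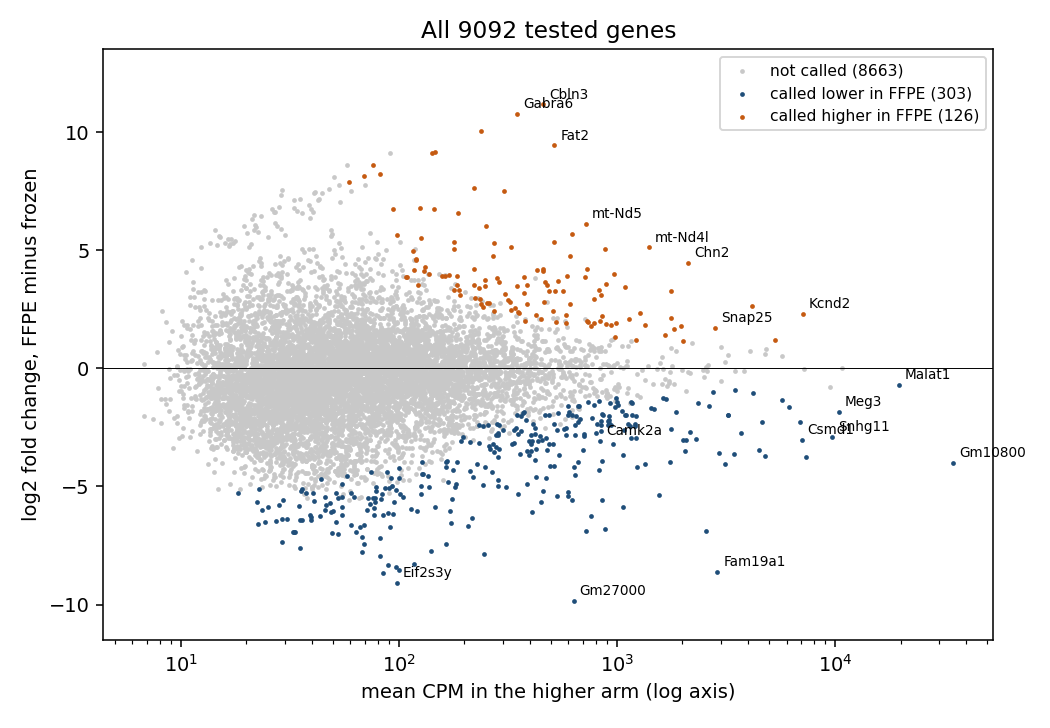
Log2 fold change (FFPE minus frozen) of the 9092 tested genes against the mean CPM of the higher arm on a log axis, with 126 genes called higher and 303 called lower in colour. Calls lie at the edges of the cloud, from Cbln3 and Gabra6 at the top to Gm27000 and Eif2s3y at the bottom.

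Of 16 listed genes of cerebellar granule neurons, the small and very numerous glutamatergic neurons of the cerebellum, 13 were tested and 10 were called higher in FFPE wells and 0 lower, against 1.39% of all tested genes called higher. Several passed the filter on low counts only through the FFPE wells, where they are high. Their median log2 fold change was 6.56, or 4.57 with the 5 genes that were at 0 in every frozen well set at their lower bound. Summed over the 15 list members in the table, granule genes came to 1944, 1498 and 2006 CPM in the frozen wells of 10, 50 and 100 nuclei. The FFPE wells ranged from 7599 (Xylene, 10 nuclei) through a median of 12149 to 17492 (MinOil, 100 nuclei), with no overlap.

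Cbln3, which encodes a cerebellin secreted by granule neurons (chr14:55878913-55884392 in GRCm38), was at 0 in all 3 frozen wells. In FFPE wells it had 238.6 CPM at the lowest, 419.9 at the median and 732.9 at the highest. This was at least 110.5-fold higher (adjusted p = 1.62e-06 in edgeR's quasi-likelihood test). Zic1, a transcription factor of granule neuron precursors and their progeny, was likewise at 0 in every frozen well and ranged from 42.4 to 245.2 CPM in FFPE wells, at least 33.8-fold higher. Pax6, another such factor, ranged from 16.6 to 234.4 CPM against 0, at least 18.8-fold higher. Gabra6, the granule GABA-A receptor subunit, and Cbln1, another cerebellin, were also at 0 in the frozen wells, at least 80.1-fold and 54.4-fold higher in FFPE. Fat2, a protocadherin of granule neuron axons, had 1 count in 1 frozen well (1.12 CPM) and 165.7 to 1286 CPM in FFPE wells. These bounds set the frozen level at 3 counts summed over the frozen wells and take the lowest value on leaving out any 1 of the 12 wells. That lowest value came without the frozen well of 10 nuclei, where 3 counts are 4.07 CPM. With all wells 3 counts are 1.84 CPM, and the bounds were 244.2 for Cbln3, 74.7 for Zic1, 41.5 for Pax6, 176.9 for Gabra6 and 120.1 for Cbln1.

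Chn2 and Kcnd2, which other neurons also express, were present in every well of both arms. Chn2, a Rac GTPase-activating protein, had 83.0, 77.7 and 75.0 CPM in the frozen wells of 10, 50 and 100 nuclei. FFPE wells had 964 at the lowest, 1986 at the median and 3155 at the highest, a log2 fold change of 4.47 (SE 0.44, edgeR adjusted p = 5.06e-07). Kcnd2, the Kv4.2 potassium channel subunit, had 1360, 976.5 and 1239 CPM in frozen wells and 4254 to 9446 in FFPE wells, a log2 fold change of 2.31 (SE 0.25). Both were higher in 9 of 9 FFPE wells than in any frozen well. Cadps2 and Gabrd, a priming factor and a tonic GABA-A receptor subunit, were not called, at log2 fold changes of 1.19 (adjusted p = 0.112) and 0.34 (0.845). Pax6 lost its call without any 1 frozen well (adjusted p 0.0681 to 0.243), Etv1 likewise (0.0801 to 0.129), and Grin2c without the frozen well of 10 nuclei (0.112). The other 7 called granule genes kept their calls without any 1 well. In pooled wells, fewer cells of a type and less RNA per cell cannot be told apart, and region sampled, animal and preservation cannot be told apart either.

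Cortex is the tissue the labels name. Of 18 listed genes of cortical projection neurons 14 were tested, and 7 were called lower in FFPE wells and 0 higher, against 3.33% of all tested genes called lower; the median log2 fold change was -2.95. The list summed to 5750, 3847 and 4689 CPM in the frozen wells of 10, 50 and 100 nuclei. In FFPE wells it summed to 761.9 at the lowest, 1164 at the median and 2868 at the highest, which was the Xylene well of 10 nuclei. The groups did not overlap, and no member was at 0 in all FFPE wells.

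Camk2a, a kinase of excitatory forebrain synapses, had 864.1, 702.8 and 953.6 CPM in frozen wells and 26.0 to 252.3 in FFPE wells, a log2 fold change of -3.07 (SE 0.44, edgeR adjusted p = 6.54e-05). Cux2, a factor of upper-layer neurons, fell by 5.19 on the log2 scale. Nrgn fell by 3.15, Rasgrf2 by 2.84 and Mef2c by 1.92. For each of these 5 genes all FFPE wells were below all frozen wells. Hs3st4, a gene of deep-layer neurons, fell by 2.73 but overlapped, since the Xylene well of 10 nuclei had 1477 CPM against 628.8 to 1076 in frozen wells.

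Only Camk2a of the 7 kept its call without the frozen well of 10 nuclei, the 1 call among 16 members tested, where 0.547% of all genes were called lower. In that fit Cux2 was at -2.89 with an adjusted p of 0.58, Nrgn of 0.416, Rasgrf2 of 0.461, Mef2c of 0.113 and Hs3st4 of 0.37. Nrgn and Mef2c also lost their calls without either of the other frozen wells (adjusted p 0.125 to 0.238), Rasgrf2 without that of 50 nuclei (0.19), and Hs3st4 without either or without the MinOil well of 10 (0.0556 to 0.372). Without the frozen well of 100 nuclei Hs3st4 was at -1.78. It also lost its call with DESeq2 size factors (0.0537) or without the block (0.129). Without all 4 wells of 10 nuclei, 9 of 15 tested members were called lower and 1 higher, against 4.62% and 3.69% of all genes. That 1 was Neurod2, a proneural factor that granule neurons also express. It had 12.3, 7.40 and 4.29 CPM in frozen wells and 23.3 to 162.9 in FFPE wells, a log2 fold change of 2.83 that was not called in all wells (adjusted p = 0.223). Slc17a7, the vesicular glutamate transporter that cortical and granule neurons share, had a log2 fold change of -1.15 (adjusted p = 0.718). Over the alternatives it ran from -1.75 without the frozen well of 50 nuclei to -0.15 without that of 10, and was not called in any.

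**Figure D3:**
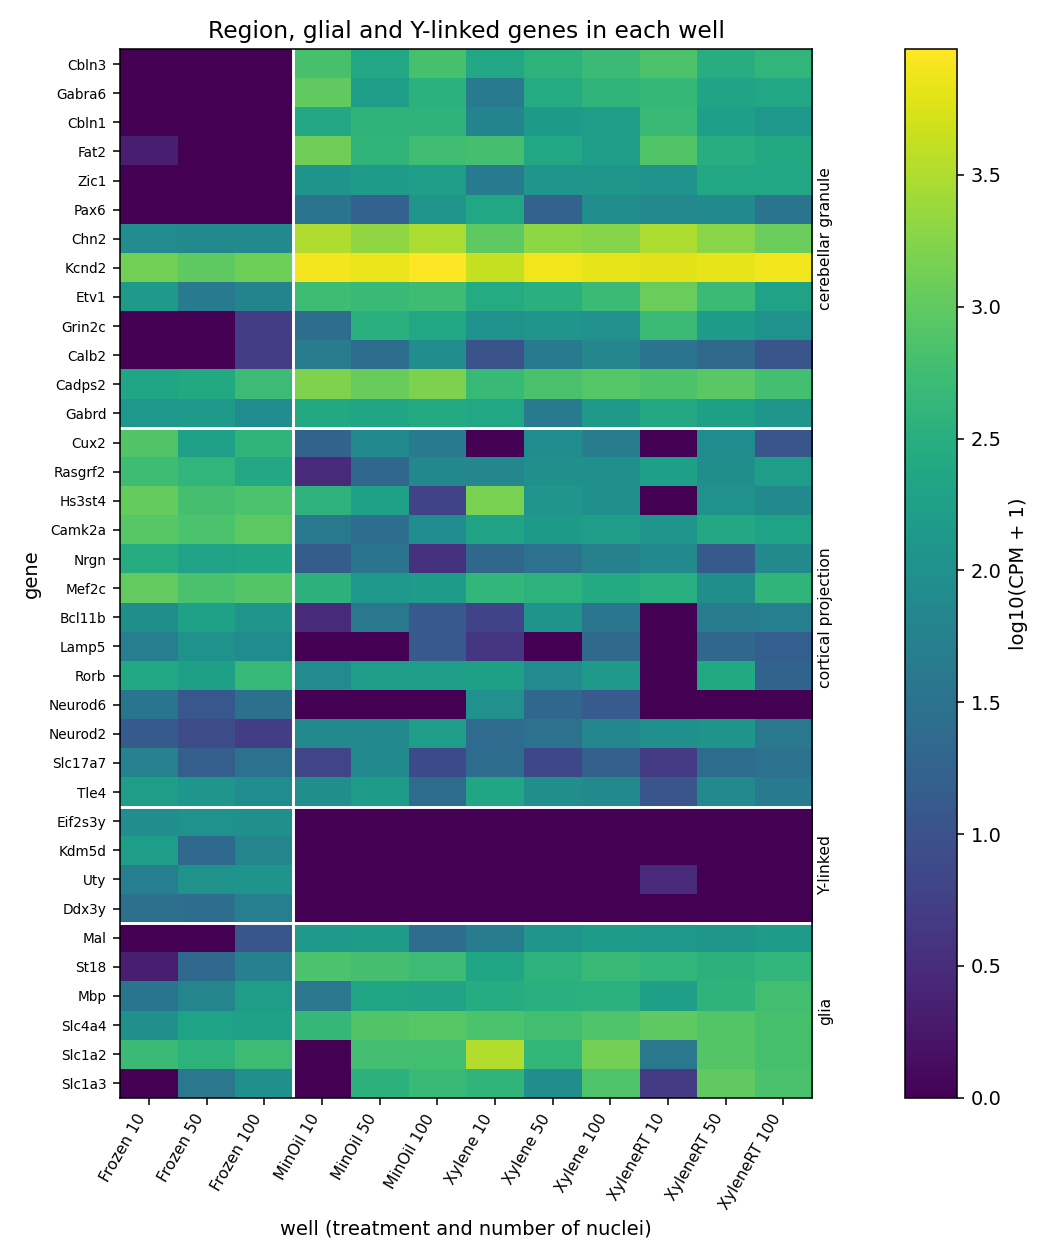
Heat map of log10(CPM + 1) for granule, cortical projection, Y-linked and glial genes, 1 row per gene and 1 column per well, frozen wells left of the white line. Cbln3 to Pax6 are at or near 0 in all frozen wells and present in all FFPE wells, and the Y-linked genes show the opposite pattern.

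Of 4 GABAergic interneuron genes tested 2 were called higher, against 1.39% of all tested genes. All 4 reached an unadjusted p under 0.05 with a higher FFPE level, where 1573 of all 9092 tested genes reached it in either direction. DESeq2 called 3 of the 4 higher, against 3.97% of all genes. The list summed to 25.8 to 440.1 CPM in frozen and 605.5 to 3314 in FFPE wells, with no overlap. Reln, the secreted glycoprotein reelin that cortical interneurons and cerebellar granule neurons both make, had 20.2, 111 and 40.7 CPM in frozen wells and 119.8 to 953.1 in FFPE wells. Adarb2, an RNA-editing enzyme relative, had 5.61, 118.4 and 122.1 CPM in frozen wells against 224.8 to 1951 in FFPE wells. Their log2 fold changes were 3.27 and 3.55, and Reln lost its call without the frozen well of 10 nuclei (adjusted p = 0.0578), which left 1 of the 4, against 0.497% of all genes higher. Gad1 and Gad2, the enzymes that make GABA, were not called, at 2.67 (adjusted p = 0.153) and 2.64 (0.223). Itpr1, the calcium release channel abundant in Purkinje neurons, was the 1 called of 4 tested Purkinje genes, where 3.33% of all tested genes were called lower. The list summed to 606.4 to 710.2 CPM in frozen and 65.3 to 378.5 in FFPE wells, with no overlap. Itpr1 fell by 2.58 on the log2 scale, from 528.5 to 665.8 CPM in frozen wells to 5.85 to 280.2 in FFPE wells, and was not called without any 1 frozen well (adjusted p 0.115 to 0.378). Of 6 striatal genes tested, 0 were called by edgeR's quasi-likelihood test (1 at an unadjusted p under 0.05, 0 by DESeq2). In each of 5 alternative settings 1 was called lower, and the share of all genes called lower in each is given in brackets. The settings were no filter on low counts (2.06%), thinned wells (4.56%) and without the 4 wells of 10 nuclei (4.62%). The others were without the Xylene well of 50 (2.92%) and without the XyleneRT well of 10 (2.93%). The summed level overlapped, at 1957 to 2479 CPM in frozen and 748 to 2676 in FFPE wells.

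Of 9 oligodendrocyte genes tested 3 were called higher in FFPE wells and 0 lower, against 1.39% of all tested genes called higher, with a median log2 fold change of 3.59. Their summed level was 70.7, 159 and 392.1 CPM in the frozen wells of 10, 50 and 100 nuclei and 883.8 to 3057 in FFPE wells, with no overlap. St18, a zinc finger factor of myelinating cells, had 1.12, 22.2 and 55.7 CPM in frozen wells and 221.6 to 704.3 in FFPE wells, a log2 fold change of 4.12 (SE 0.80, edgeR adjusted p = 0.00209). Mal, a myelin raft protein, rose by 4.95, from 0 to 10.7 CPM to 25.6 to 154.1 CPM. Mbp, the myelin basic protein gene, was not called (log2 fold change 1.49, adjusted p = 0.207). Only 1 of the 3 called genes, St18, kept its call without the frozen well of 10 nuclei. Mal lost its call without the frozen well of 10 or 50 nuclei (adjusted p = 0.378 and 0.238) and also without the MinOil well of 50, the Xylene well of 100 or the XyleneRT well of 100 (0.0549 to 0.081). Without the frozen well of 100 nuclei it was at 9.15. Of the list, 1 of 10 tested was called without the frozen well of 10 or of 50 nuclei, against 0.497% and 0.628% of all genes called higher there. DESeq2 called 6 of 9 higher, where it called 3.97% of all genes higher. Without the 4 wells of 10 nuclei 6 of 9 were higher, against 3.69% of all genes.

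Of 7 astrocyte genes 1 was called higher, against 1.39% of all tested genes, and the median log2 fold change was 2.86. An unadjusted p under 0.05 with a higher FFPE level was reached by 5, where 1573 of all 9092 tested genes reached it in either direction. DESeq2 called 4 of the 7 higher, against 3.97% of all genes, and so did the fit without the 4 wells of 10 nuclei, against 3.69%. Without any 1 frozen well 0 were called. Of 8 microglial genes 0 were called. Slc4a4, the sodium bicarbonate cotransporter of astrocytes, had 97.6, 199.7 and 190.7 CPM in frozen wells and 440.9 to 986.7 in FFPE wells, a log2 fold change of 1.95. It lost its call without any 1 frozen well (adjusted p 0.0507 to 0.173). The glutamate transporter Slc1a3 had 0, 37.0 and 98.6 CPM in frozen wells and 0 to 994.9 in FFPE wells, and its log2 fold change of 3.82 was not called (adjusted p = 0.0714). It was called in 10 of 19 alternative settings, over which the adjusted p ran from 3.23e-05 to 0.646. The other glutamate transporter, Slc1a2, was at 0.17 (adjusted p = 0.945). Microglial genes summed to 8.98 to 55.5 CPM in frozen and 0 to 740.4 in FFPE wells. Of the 8 tested, 2 reached an unadjusted p under 0.05, against 1573 of all 9092 tested genes, and DESeq2 called 0. Slco1a4, an organic anion transporter of brain endothelium, was the 1 endothelial gene called higher of 7, against 1.39% of all tested genes. It was carried by 2 wells, with 1199.8 and 1271 CPM in the MinOil and XyleneRT wells of 10 nuclei, 60.5 to 136.6 in the 3 FFPE wells of 100 nuclei and 0 in the other 4. It was not called without the frozen well of 10 nuclei (0.738) or the Xylene well of 100 (1), by DESeq2 (0.589), without the block (0.0957) or without the wells of 10 nuclei (0.175). Choroid plexus and erythroid genes were too sparse to test.

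Of 9 mitochondrially encoded genes tested, 7 were called higher in FFPE wells and 0 lower, against 1.39% of all tested genes called higher, with a median log2 fold change of 5.04. They summed to 249.1, 395.8 and 383.6 CPM in the frozen wells of 10, 50 and 100 nuclei, and to 4019 (Xylene, 10 nuclei) at the lowest, 5578 at the median and 8149 (XyleneRT, 100 nuclei) at the highest in FFPE wells. All 11 genes of the list had a count in each FFPE well, and 7, 9 and 7 of them in the frozen wells. The share of counts was 0.606% ± 0.138 in FFPE (SD, n = 9) and 0.0343% ± 0.00814 in frozen wells (SD, n = 3).

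The mitochondrial genes did not differ by 1 common factor. The gene mt-Nd5, which encodes a subunit of respiratory complex I, had 6.73, 3.70 and 12.9 CPM in frozen wells and 348.2 to 1717 in FFPE wells, a log2 fold change of 6.10 (SE 0.69, edgeR adjusted p = 3.16e-06). mt-Nd4l rose by 5.12, mt-Nd2 by 5.33, mt-Cytb by 5.04 and mt-Nd1 by 4.01. mt-Co1, a subunit of cytochrome oxidase, had 161.6, 229.3 and 233.6 CPM in frozen wells and 784.8 to 1916 in FFPE wells and rose by 2.35 (SE 0.38, adjusted p = 0.000319). mt-Nd6, the 1 list member encoded on the other strand, rose by 6.81 but lost its call without the frozen well of 10 or 100 nuclei (adjusted p = 0.0947 and 0.0635). mt-Atp8 and mt-Nd3 were not called, at 4.06 and 4.04 (adjusted p = 0.118 and 0.147), and both were called without the wells of 10 nuclei. No FFPE well overlapped a frozen well in any of the genes named here.

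Of 87 cytosolic ribosomal protein genes tested 4 were called higher and 0 lower, against 1.39% of all tested genes called higher. At an unadjusted p under 0.05, 31 had a higher and 3 a lower FFPE level, against 1573 of all 9092 tested genes in either direction. The median log2 fold change of the 87 genes was 2.15. Their summed level was 2037, 1990 and 1708 CPM in the frozen wells of 10, 50 and 100 nuclei and 5109 to 8383 in FFPE wells, with no overlap. The 4 were Rps25, Rpl19, Rps19 and Rpl7, with log2 fold changes of 4.12, 3.30, 3.85 and 3.52. Rpl7 had 11.2, 29.6 and 8.57 CPM in frozen wells and 72.7 to 376.5 in FFPE wells. Rps25 and Rpl19 overlapped between arms through the XyleneRT well of 10 nuclei. None of the 4 kept its call without the frozen well of 10 nuclei (adjusted p 0.193 to 0.38). Rpl7 also lost it without the frozen well of 100 (0.147), and the other 3 without that of 50 or of 100 (0.202 to 0.254). Rps25, Rpl19 and Rps19 each also lost it without at least 6 of the FFPE wells in turn, at 0.0506 to 0.101. Rpl19 also lost it with the stricter filter on low counts (0.0524) and Rps19 with none (0.0893). Without all wells of 10 nuclei 25 of 87 were called higher and 1 lower, against 3.69% and 4.62% of all genes. DESeq2 called 27 higher and 2 lower, against 3.97% and 7.26%.

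Nuclear genes of the respiratory chain gave 3 called of 70, all higher, against 1.39% of all tested genes, with a median of 1.76 and summed levels of 1881 to 2190 CPM in frozen and 4286 to 8711 in FFPE wells. Ndufa4 had 31.4, 25.9 and 19.3 CPM in frozen wells and 123 to 584.3 in FFPE wells, a log2 fold change of 3.48. Cox8a rose by 3.47 and Cox6a1 by 6.75. All 3 lost their calls without the frozen well of 10 nuclei (adjusted p = 0.0638, 0.113 and 0.0673), and Cox8a and Cox6a1 also without either of the others (0.0596 to 0.0959). Without all wells of 10 nuclei 20 of 70 were called higher and 0 lower, against 3.69% of all genes higher, and DESeq2 called 12 higher, against 3.97%. Many of these genes have pseudogene copies, and the labels do not say how reads shared with them were counted.

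Stress-related lists had 0 calls by edgeR's quasi-likelihood test. Of 8 heat shock and chaperone genes, 2 reached an unadjusted p under 0.05, against 1573 of all 9092 tested genes. DESeq2 called 1 of the 8 higher, against 3.97% of all genes. Without the 4 wells of 10 nuclei 2 of 9 were called higher, against 3.69%. Their summed level still separated the arms, at 653.6 to 713.7 CPM in frozen and 959.9 to 2012 in FFPE wells. Hspa8, the constitutive chaperone, had 143.6 to 202 CPM in frozen and 317.1 to 699.1 in FFPE wells, a log2 fold change of 1.15 that did not pass (adjusted p = 0.186). Of 6 immediate early genes, which neurons switch on within minutes of stimulation, 0 reached an unadjusted p under 0.05 and DESeq2 called 0, while 1 of 9 was called lower without the 4 wells of 10 nuclei, against 4.62% of all genes. Their sums overlapped, at 277.2 to 418 CPM in frozen and 54.4 to 364.8 in FFPE wells.

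**Figure D4:**
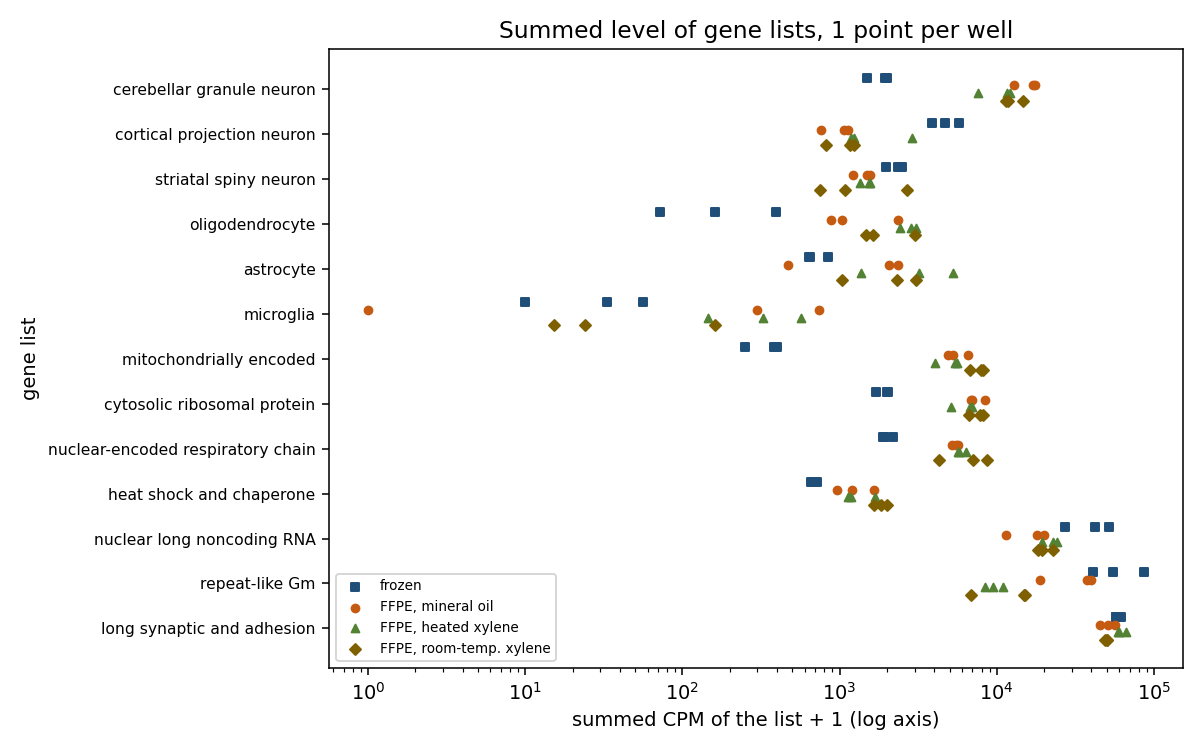
Summed CPM (plus 1, log axis) of 13 gene lists, 1 point per well, coloured by treatment. Granule, oligodendrocyte, mitochondrial, ribosomal protein, respiratory chain and chaperone sums lie higher in all FFPE wells, while cortical projection, nuclear noncoding and repeat-like sums lie lower in all FFPE wells.

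Of 7 tested long noncoding RNAs held in the nucleus, 4 were called lower in FFPE wells and 0 higher, against 3.33% of all tested genes called lower, with a median log2 fold change of -1.85 and summed levels of 27033, 42273 and 51764 CPM in the frozen wells of 10, 50 and 100 nuclei against 11473 to 24021 in FFPE wells. Snhg11, a small nucleolar RNA host transcript of neurons, had 6949.6, 9151 and 12947 CPM in frozen wells and 1014 to 2453 in FFPE wells, a log2 fold change of -2.92 (SE 0.25, edgeR adjusted p = 2.09e-07). Meg3, an imprinted transcript of neurons, fell by 1.85 (SE 0.20), from 7621 to 12326 CPM in frozen wells to 2082 to 4669 in FFPE wells. Miat fell by 4.88, from 360 to 416.3 CPM to 0 to 43.5. Each of these 3 had all FFPE wells below all frozen wells. Malat1 fell by 0.69 (SE 0.16, adjusted p = 0.0124) but overlapped, at 8330.5 to 18357 CPM in FFPE wells against 11641, 21253 and 25955 in frozen wells. Malat1 lost its call without the frozen well of 50 or 100 nuclei (adjusted p = 0.158 and 0.313) and by DESeq2 (0.296), and was at -0.38 without that of 100. Miat lost its call without the frozen well of 10 nuclei (0.168). Neat1, which builds paraspeckles, was not called, at 2.69 (adjusted p = 0.0981). It was called higher in 5 of 19 alternative settings, over which the adjusted p ran from 0.0167 to 0.585. DESeq2 was one of them and called 3 of the 7 lower and 1 higher, against 7.26% and 3.97% of all genes.

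Annotated repeat-like transcripts were among the largest takers of counts in the frozen wells. Of 6 such genes tested 4 were called lower and 0 higher, against 3.33% of all tested genes called lower, and the 4 kept their calls without any 1 well. Gm10800 (chr2:98666547-98667301, minus strand, GRCm38) had 24033, 29908 and 50459 CPM in the frozen wells of 10, 50 and 100 nuclei. Its FFPE wells ranged from 132.3 through a median of 2462 to 19008, a log2 fold change of -4.01 (SE 0.42, edgeR adjusted p = 1.30e-06). Gm21738 (chr14:19415857-19418930, minus strand) fell by 3.76, Gm26870 fell by 3.72 and Gm26917 fell by 4.05. Gm10801 (chr2:98662237-98664083, plus strand) overlapped between arms, at 5881 to 13449 CPM in frozen and 1783 to 14165.5 in FFPE wells, and was not called (-0.81, adjusted p = 0.172). It was called lower in 3 of 19 alternative settings, over which the adjusted p ran from 1.75e-07 to 0.966. Leaving out the MinOil well of 50 nuclei was among them (0.0389). Gm42418 lay higher in all FFPE wells, at 1868 to 3958 CPM against 825.9 to 1639, but was not called (0.92, adjusted p = 0.0532). Gm42418 was called higher in 6 of 19 alternative settings, over which the adjusted p ran from 0.00352 to 0.378. Among them were the fits without any 1 of 4 FFPE wells (0.0165 to 0.0424). Without the wells of 10 nuclei both were called, Gm10801 lower (0.0163) and Gm42418 higher (0.0327).

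Gm10800, Gm10801 and Gm21738 share sequence, so reads from them cannot be placed with certainty, while Gm26870, Gm26917 and Gm42418 shared 0% of their 31-base words with the other 5. In GENCODE M21 on GRCm38, 29.3% of the 31-base words of Gm10801 and 16.6% of those of Gm21738 also occur in Gm10800. The longest run shared with Gm10800 is 86 bases in Gm10801 and 67 in Gm21738, all in annotated coding exons. The 67-base window of the 2 runs is shown, 5′ to 3′ in the sense of each transcript, with the base at which they differ in capitals (A32G, Gm10801 first, counted from the first base of the window).
Gm10801: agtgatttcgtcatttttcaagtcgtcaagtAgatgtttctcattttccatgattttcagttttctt
Gm21738: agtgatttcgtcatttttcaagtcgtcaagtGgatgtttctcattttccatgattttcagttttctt
Both versions occur in Gm10800. Gm10800, Gm21738 and Gm26870 also differed among the 3 FFPE methods. Gm10800 had 19008, 14780.5 and 6168 CPM in the MinOil wells of 10, 50 and 100 nuclei. It had 409.3, 409.4 and 2499 in the Xylene wells and 2067, 132.3 and 2462 in the XyleneRT wells, so all MinOil wells were above all xylene wells.

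Long genes of synapses and adhesion split. Of 15 tested, 5 were called lower and 1 higher, against 3.33% and 1.39% of all tested genes, and the median log2 fold change was -0.03. Csmd1, a complement-regulating membrane protein, had 8380.3, 6144 and 6570.1 CPM in the frozen wells of 10, 50 and 100 nuclei and 442.6 to 4291 in FFPE wells, a log2 fold change of -3.02 (SE 0.29, edgeR adjusted p = 3.32e-07). Ptprd, a receptor phosphatase that organizes synapses, fell by 2.28, and Nrg3, a neuregulin, fell by 2.26. In these 3 genes all FFPE wells were below all frozen wells, and the Xylene well of 10 nuclei, at 4291, 4774 and 3099 CPM, was the highest FFPE well in each. Dlg2, a postsynaptic scaffold, fell by 1.32 and Opcml, an adhesion protein, by 1.02. Lsamp, an adhesion protein of the same family as Opcml, rose by 1.20, from 1047, 2652 and 2357 CPM in frozen wells to 2724 to 7152 in FFPE wells. Kcnip4 and Nrxn3 stayed near 0, at 0.03 (adjusted p = 0.957) and -0.03 (0.961). DESeq2 called 3 of the 15 lower and 0 higher, against 7.26% and 3.97% of all genes, and did not call Dlg2 (adjusted p = 0.0518), Opcml (0.119) or Lsamp (0.059). Dlg2 lost its call without the frozen well of 100 nuclei (0.0556), and Lsamp without that of 10 (0.0697). Opcml lost its call without any 1 frozen well or without the XyleneRT well of 100 nuclei (0.0825 to 0.302).

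Y-linked genes were present in every frozen well and nearly absent from FFPE wells. Of 9 sex-linked genes listed, 8 were tested, and the 4 on the Y chromosome were called lower, against 3.33% of all tested genes. Eif2s3y, Kdm5d, Ddx3y and Uty passed the filter on low counts only through the frozen wells, where they are high. Eif2s3y, a translation initiation factor subunit (chrY:1010543-1028847), had 87.5, 111 and 96.4 CPM in the frozen wells of 10, 50 and 100 nuclei and 0 in all 9 FFPE wells. If counts are independent, a count of 0 in 5649450 summed FFPE counts allows up to 0.531 CPM (3 counts), and 0.637 CPM without the Xylene well of 10 nuclei. Eif2s3y was at least 147.4-fold lower in FFPE, the lowest bound on leaving out any 1 well. Kdm5d, a histone demethylase, was 0 in all FFPE wells and at least 81.4-fold lower, a bound reached without the frozen well of 10 nuclei and 159.2 with all wells. Ddx3y, an RNA helicase, was 0 as well and at least 50.8-fold lower. Uty had 50.5, 103.6 and 113.6 CPM in frozen wells and 1 count in 1 FFPE well (XyleneRT, 10 nuclei). Their X-linked relatives Eif2s3x, Kdm5c, Ddx3x and Kdm6a were not called, with log2 fold changes of 1.12, 0.64, 3.00 and 1.36, and reads shared by an X and Y pair could be split between the 2 copies. Of the 4 Y-linked calls, Kdm5d was lost without the frozen well of 10 nuclei (adjusted p = 0.143) and Ddx3y without any 1 frozen well (0.0681 to 0.152). DESeq2 did not call Eif2s3y (0.0805), Kdm5d (0.102) or Uty (0.0964), and called 1 of the 8 lower and 1 higher, against 7.26% and 3.97% of all genes. With the stricter filter on low counts 6 of the list were tested and 2 called lower, against 3.01% of all genes, Kdm5d and Ddx3y being left out by it. Sex, animal and preservation cannot be told apart in these wells.

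The other largest rises were genes at or near 0 in the frozen wells, which passed the filter on low counts through the FFPE wells. Svep1, a large extracellular matrix protein, was at 0 in the frozen wells and at 18.0 to 423.4 CPM in FFPE wells, at least 32.7-fold higher (edgeR adjusted p = 0.00169). Cnpy1, a regulator of fibroblast growth factor signalling at the boundary of midbrain and hindbrain, had 1 count in 1 frozen well (2.14 CPM) and 40.3 to 362.1 CPM in FFPE wells. Vipr2, a receptor for vasoactive intestinal peptide, was at 9.75 to 101.9 CPM against 0, at least 14.4-fold higher. Both bounds were reached without the frozen well of 10 nuclei, and with all wells were 72.2 for Svep1 and 31.9 for Vipr2. Neb and Pla2g7 were at 0 in all frozen wells and in 1 FFPE well each, and reached 206 and 211.7 CPM. Vipr2, Neb and Pla2g7 lost their calls without any 1 frozen well (adjusted p 0.157 to 0.355), and each also without at least 2 FFPE wells in turn (0.0504 to 0.0895). Pla2g7 lost its call in thinned wells too (0.0653). Svep1 and Cnpy1 kept theirs without any 1 well.

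The other largest falls were led by Gm27000 (chrX:88759471-88760312, minus strand), an annotated lincRNA. It had 462.3, 643.6 and 799.3 CPM in the frozen wells of 10, 50 and 100 nuclei, 0 in 6 FFPE wells and 1.06, 5.76 and 9.42 CPM in the other 3, a log2 fold change of -9.85 (SE 0.82, edgeR adjusted p = 2.17e-07). Fam19a1, a secreted neuronal chemokine-like protein, had 5967, 1542 and 1157 CPM in frozen wells and 0 to 62.5 in FFPE wells, and fell by 8.61. Plk2, a polo-like kinase induced by synaptic activity, had 201.4 to 288.5 CPM in frozen wells and 0 to 17.3 in FFPE wells, and fell by 7.87. 2900055J20Rik, BC030499, Ephb6, Col26a1, A230050P20Rik and Scube1 had log2 fold changes from -8.52 to -7.75. Each was at 0 in at least 6 FFPE wells and at 51.4 CPM or more in every frozen well, with no overlap. Like Gm27000 and Plk2, these genes passed the filter on low counts through the frozen wells, where they are high. Gm27000, Fam19a1, Plk2 and Scube1 kept their calls without any 1 well. The other 5 lost theirs without the frozen well of 10 nuclei (adjusted p 0.0921 to 0.169), 2900055J20Rik also without that of 100 (0.0656), and Col26a1 and A230050P20Rik also without that of 50 (0.0914 and 0.0648). DESeq2 did not call 2900055J20Rik (0.153), BC030499 (0.154) or A230050P20Rik (0.164).

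Among genes called higher with the highest FFPE levels were 3 not listed above. Dpp6, an auxiliary subunit of Kv4 channels such as that of Kcnd2, had 353.5, 662.1 and 649.3 CPM in frozen wells and 3039 to 7687 in FFPE wells, a log2 fold change of 2.65 (SE 0.34, edgeR adjusted p = 1.40e-05). Snap25, a SNARE protein of synaptic vesicle release, had 656.5 to 769.3 CPM in frozen and 1700 to 3355 in FFPE wells, and rose by 1.70. Pde4b, a cyclic AMP phosphodiesterase, rose by 1.16, from 606.6 to 810.2 CPM to 1484 to 4414. Dpp6 and Snap25 kept their calls without any 1 well. Pde4b lost its call without either the frozen well of 10 or of 50 nuclei, or any 1 of 4 FFPE wells (adjusted p 0.057 to 0.332). It also lost it with DESeq2 size factors (0.0561), by DESeq2 (0.091), without the block (0.056) and in thinned wells (0.0577).

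Some genes were detected in 1 arm only. In all 12 wells 3201 genes had a count. In all 3 frozen wells and no FFPE well there were 63 genes, and in all 9 FFPE wells and no frozen well 20, among them the mitochondrial mt-Co2 and mt-Atp6 at 71 and 66 summed counts. These numbers move with the number of wells and the depth in each arm, 1628157 counts summed over frozen and 5649450 over FFPE wells.

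Each FFPE method was also set against the same 3 frozen wells. These contrasts share the frozen wells, so they are given side by side. MinOil minus frozen gave 222 calls (2.44%; 98 higher or 1.08%, 124 lower or 1.36%), Xylene minus frozen 88 (0.968%; 61 higher or 0.671%, 27 lower or 0.297%) and XyleneRT minus frozen 134 (1.47%; 68 higher or 0.748%, 66 lower or 0.726%). Without the frozen well of 10 nuclei these became 95, 51 and 55. MinOil calls were 147 without the frozen well of 50 nuclei and 381 without the XyleneRT well of 10. Xylene calls were 151 and 202 without the MinOil and XyleneRT wells of 10. XyleneRT calls were 77 without the frozen well of 100 and 202 without the MinOil well of 10. Chn2 had log2 fold changes of 4.89 in MinOil, 4.15 in Xylene and 4.36 in XyleneRT. For mt-Nd1 they were 3.53, 3.99 and 4.53, and for Snhg11 -3.05, -2.68 and -3.02. Csmd1 differed more between methods, at -4.03, -1.75 and -3.29.

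A test of any difference among the 3 FFPE methods called 6 of 9092 genes (0.066%), and 388 reached an unadjusted p under 0.05. Besides Gm10800, Gm21738, Gm26870 and Csmd1 these were Asic2, an acid-sensing ion channel gene, and Gm28928. Asic2 had 128.8, 210.5 and 197.9 CPM in the MinOil wells of 10, 50 and 100 nuclei. It had 611.9 to 1125 in the Xylene wells and 424.3 to 1769 in the XyleneRT wells, against 1336 to 1586 in frozen wells. Gm28928 had 288.1 to 401.9 CPM in the Xylene wells, at most 21.3 in the MinOil wells, and 0, 261.1 and 0 in the XyleneRT wells, against 2134 to 2915 in frozen wells.

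Whether the difference between arms changed with the number of nuclei was tested gene by gene, and 0 genes (0%) were called by edgeR's quasi-likelihood test. The smallest adjusted p was 0.406, 508 genes reached an unadjusted p under 0.05, DESeq2 called 1, and 9 were called with no filter on low counts. With 1 frozen well at each nuclei number, the design sets 3 frozen wells against 9, and this does not show that the difference is the same at each number.

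The SCRB-seq wells of the same series give the same contrast by 3′ counting in separate wells, 48 FFPE and 16 frozen. Whether they share animals with the SMART-Seq2 wells is not given in the labels. All these SCRB-seq wells belong to the same GEO sample, and the labels give no animal for them. Calls and p-values from the SCRB-seq wells therefore also measure the spread between wells, which may be technical. There, 882 of 1478 tested genes were called (59.7%), 444 higher in FFPE (30%) and 438 lower (29.6%). Of the 126 genes higher in SMART-Seq2, 91 were tested in SCRB-seq, where 72 were called higher and 2 lower. Of the 303 lower genes 150 were tested, where 128 were called lower and 7 higher. Median SCRB-seq log2 fold changes were 1.63 for the first set and -1.72 for the second, against -0.06 for all genes tested there.

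Named genes mostly had the same sign in both chemistries but not always the same size. Cbln3 had a SCRB-seq log2 fold change of 7.34, Chn2 4.10, Camk2a -3.30 and Fam19a1 -4.27. Malat1, at -0.69 in SMART-Seq2, was at -3.04 in SCRB-seq (edgeR adjusted p = 7.29e-41). mt-Co1, 1 of the 2 genes higher in SMART-Seq2 and lower in SCRB-seq, was at -0.82 there. The 7 with the opposite change were Epha10, RP23-407N2.2, Zfp263, Pcdh15, Grm7, Dab1 and Apba2. Grm7, a metabotropic glutamate receptor, had log2 fold changes of -3.51 in SMART-Seq2 and 1.07 in SCRB-seq, and Zfp263 of -4.63 and 2.96. These 8 genes were named after their values were seen.

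**Figure D5:**
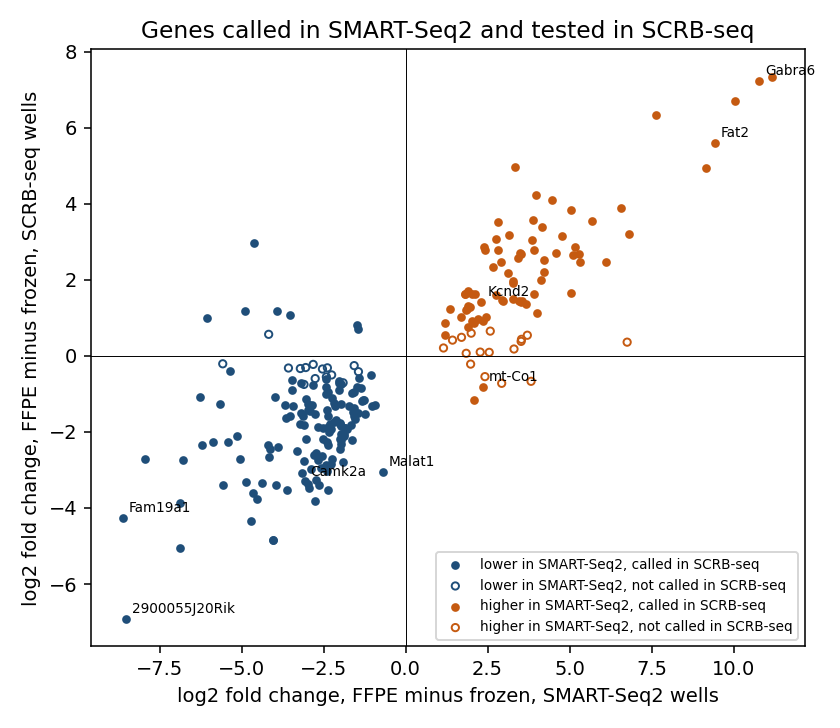
Log2 fold change (FFPE minus frozen) in SCRB-seq wells against that in SMART-Seq2 wells for the 241 genes called in SMART-Seq2 and tested in SCRB-seq; filled points were called in SCRB-seq. Most points lie in the lower left and upper right, and mt-Co1 is among the 9 called in opposite directions.

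Calls also differed by gene length and base content. Gene models in GENCODE M21 matched 97.1% of the tested genes. In the longest of 4 equal groups of genes, at 90668 bp or more, 8.25% were called lower and 2.77% higher. In the shortest group these shares were 1.99% and 1.68%. The groups between had 1.41% and 1.81% called lower and 0.408% and 0.725% called higher, so the shares did not rise steadily with length. The median log2 fold change moved from -0.14 in the group with the lowest exonic GC content to -0.61 in that with the highest. Across genes, Spearman's rho with the log2 fold change was -0.08 for gene length and -0.09 for GC content (n = 8825 and 8823). Length, level and the power to call a gene move together in nuclear libraries, and their part in these shares was not tested.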

How the data were processed

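SMART-Seq2 libraries of pooled nuclei were deposited by the authors as raw counts per gene and well, with an annotation table that gives treatment, nuclei number and indices. Column sums equal the totals of that table. The submitters' processing notes name the builds hg19 and mm10. No aligner, counter or strand setting is given in the sources used here. Total counts were 270363 to 942966 per well, and their number limits the precision. No values came from other samples' columns.

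The 12 wells were fitted by the quasi-likelihood method of edgeR 4.0.16 (R 4.3.3), with treatment and nuclei number as factors, after filterByExpr and TMM scaling. The contrast was the mean of the 3 FFPE treatments minus frozen. Pairing comes from the nuclei number in the annotation. DESeq2 1.42.0, other filters and scalings, thinning and leaving out each well were alternatives. SCRB-seq mouse genes (19006) were fitted alike, and 10653 human genes were left out. Scripts were tested on simulated data. CPM are counts scaled to the well total. Genes were named by rule: the 12 largest rises and falls, the 6 most abundant called genes each way, the 5 largest shares and members of 24 lists. Results for some list members are not reported here. Members and lists were chosen with earlier results of these data known. Python 3.11, numpy 2.4.6, pandas 2.3.3, scipy 1.17.1 and matplotlib 3.10.9 were used. Intervals and floors (3 counts) treat each count as a separate molecule, but reads carry no molecular identifiers in these tables. They therefore cover neither repeated copies of 1 molecule nor the spread between wells. Fold bounds take the level of the higher arm as observed.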

Additional observations from a re-analysis of the deposited data

Results flagged for a closer look

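Among the 9 FFPE wells, some values lay far from the other 8. The criterion has a nominal rate of about 1 in 20 groups of 9 wells. That rate was not checked for CPM, which can rest on very few counts. Uty, for example, had 1 count in the XyleneRT well of 10 nuclei and none in any other FFPE well. How many of the values screened chance would set apart is therefore not known. No reason for any of these values was tested. The Xylene well of 10 nuclei was highest for the summed cortical projection list (2868 CPM), Csmd1 (4291), Dlg2 (6473), Hs3st4 (1477), Neurod6 (101.8), Nrg3 (3099), Pax6 (234.4), Ptprd (4774) and Slc1a2 (3286). The XyleneRT well of 10 nuclei was highest for the summed striatal list (2676 CPM), Eif2s3x (209.1), Etv1 (1173), Kdm5c (385.7), Pde4b (4414) and Uty (2.03). The MinOil well of 10 nuclei was highest for Dpp6 (7687 CPM), Gabra6 (1026), Rpl19 (556) and Svep1 (423.4). That well was lowest for the summed histone list (21.5 CPM) and the summed nuclear noncoding list (11473).

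Wells of 50 and 100 nuclei stood apart for fewer genes. The MinOil well of 50 nuclei was highest for Slc17a7 (75.7 CPM), the Xylene well of 50 for 2900055J20Rik (40.8) and Bcl11b (112.2), and the XyleneRT well of 50 for Pla2g7 (211.7). The Xylene well of 100 was highest for BC030499 (23.0 CPM) and Plk2 (17.3). The XyleneRT well of 100 was highest for A230050P20Rik (18.3 CPM), Col26a1 (18.3), Ephb6 (22.4), Scube1 (6.11) and the summed choroid plexus list (2.04).

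The 3 FFPE methods differed in 6 genes by edgeR's quasi-likelihood test of any difference, with adjusted p of 0.00292 for Gm10800, 0.0201 for Gm21738, 0.0227 for Gm26870, and 0.0446 for each of Csmd1, Asic2 and Gm28928.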

How the results depend on the processing

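Nuclei number pairs each frozen well with 3 FFPE wells by the annotation. Without this replicate block the calls were 372 (132 higher, 240 lower; 355 shared with the 429), genes detected had an exact permutation p of 0.214 for the same difference of -1888, and the Malat1 share one of 0.0682 for -0.54. DESeq2's Wald test called 1021 genes, and 761, 451 and 576 for MinOil, Xylene and XyleneRT. Without the 4 wells of 10 nuclei 789 were called. With no filter on low counts Xylene had 182 calls and the nuclei number test 9, where DESeq2 had 1. Requiring 5 counts gave -435.4 genes detected (exact permutation p = 0.672). Leaving out 1 well gave 103 to 488 calls, and 95 to 381, 51 to 202 and 55 to 202 by method. It gave -2530 to -698.2 genes detected, -0.83 to -0.34 points of Malat1 share, and -8.83 to -5.26 points on the 100 most abundant genes. With a frozen well left out, 16 arrangements allow no exact p below 0.0625, so lost significance there says nothing about stability. Genes that were not called changed sign on leaving out 1 well, with log2 fold changes of -0.49 to 1.74 for Eif2s3x, -0.026 to 0.30 for Kcnip4, -0.14 to 0.46 for Nrxn3 and -1.62 to 0.99 for Slc1a2. Kcnip4 was at -0.052 in thinned wells and Nrxn3 at 0.45 without the wells of 10 nuclei. Apart from fewer samples where wells were left out, the cause was not tested. Depth limits the frozen arm most, where 3 counts are 1.84 CPM.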
